A study of Mus musculus with 12 samples.

Results

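The 10 genes described here mark the step at which an oligodendrocyte precursor cell (OPC) commits to becoming an oligodendrocyte but has not yet wrapped an axon: Gpr17, Neu4, Bmp4, Bcas1, Enpp6, Nkx2-2, Tcf7l2, Zfp488, Myrf and Sirt2. They were chosen by name, and all 10 were found among the 30165 genes of the OPC table and again among the 17918 genes of the neuron table. RNA was sequenced from the mouse cortex in 12 libraries, which fell into OPC ctl, OPC dKO, neuron ctl and neuron dKO groups of 3 libraries each. The dKO mice carried floxed alleles of Cacna1c and Cacna1d, which encode the L-type calcium channel pores CAV1.2 and CAV1.3, together with NG2-CreERT2, a tamoxifen-inducible Cre recombinase expressed from the NG2 (Cspg4) locus. The ctl mice are labelled WT. Recombination was started with tamoxifen (100 mg/kg) at postnatal day 7 and again at day 8, and most of the mouse lines were kept on a C57BL/6N background. The age at which cells were collected for sequencing and whether ctl mice carried Cre or floxed alleles were not given in the sources used here. Each library pooled 2 mice, magnetic beads carrying antibodies to CD140, NG2 or O4 (the last also binds later oligodendrocytes) took out the OPCs, and neurons were what flowed through after beads had held back astrocytes (by ACSA-2), endothelial cells (CD31), microglia (CD11b) and oligodendrocyte lineage cells (O4). The comparison asks how the loss of both channels in NG2-expressing cells shows in the OPCs and in the neurons. NG2 is also made by mural cells of the vessel wall, so NG2-CreERT2 is not limited to the oligodendrocyte lineage.

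Commitment is a short passage between a dividing precursor and a myelinating cell. Gpr17, a G protein-coupled receptor, Neu4, a sialidase that trims sialic acid from glycans, and Bmp4, a secreted ligand of the bone morphogenetic protein (BMP) pathway, belong to its early part, while Bcas1 and Enpp6 mark cells that are about to myelinate. Nkx2-2, Tcf7l2 and Zfp488 are transcriptional regulators of the passage, Myrf is the membrane-bound transcription factor that switches on myelin genes, and Sirt2 is a deacetylase that accumulates in myelinating cells.

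None of the 10 genes passed an adjusted p of 0.05 between dKO and ctl in either cell type. The members differed in which other genes they followed from library to library in OPCs. Gpr17 and Neu4 held a nearly fixed proportion to the summed OPC markers and Myrf held one to the summed mature oligodendrocyte markers, while Bmp4 followed neither marker sum. In a search over all genes tested, the pattern nearest to that of Bcas1 was that of Mbp, the gene of myelin basic protein. In the neuron libraries all 10 genes were detected, and ctl replicate 3 was the lowest ctl library for each of them.

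The targeted genes were not past the adjusted threshold in either cell type. In OPCs Cacna1c had 364, 411 and 439 normalized counts in ctl replicates 1 to 3 and 257, 336 and 316 in dKO, a log2 fold change of -0.44 ± 0.15 (SE) with an edgeR adjusted p of 0.349 and no overlap between the groups. Cacna1d had 245, 191 and 255 against 94.6, 153 and 235, with -0.55 ± 0.31 and overlapping groups. In neurons the values were 0.44 ± 0.43 for Cacna1c and 0.80 ± 0.58 for Cacna1d. Counts over a whole gene include transcripts that lack the deleted exons. The labels did not describe the whole content of the libraries. Per gene length, the 20 mature oligodendrocyte markers summed to between 8730 and 16293 FPKM (fragments scaled for gene length and library depth) in the OPC libraries, and the 14 OPC markers to between 52.6 and 183 FPKM. In the neuron libraries the 10 endothelial markers summed to between 10507 and 27595 TPM (a transcript abundance, also scaled for length and depth) and the 12 neuron markers to between 493 and 896 TPM. No marker of these lists stood at 0 in any library. In addition, OPC dKO replicate 2 had 774 CPM (counts scaled to library depth) of Xist, against at most 1.16 CPM in any other OPC library, and no count of 4 Y-linked genes (Ddx3y, Eif2s3y, Kdm5d and Uty). Those Y-linked genes summed to between 240 and 283 CPM in the other OPC libraries. In the neuron libraries replicate 1 of each group held them, at 386 and 334 CPM, and the other libraries had at most 3.69 CPM. Sex and library cannot be told apart in OPC dKO replicate 2, so values without it are given for each member and list in OPCs. Total counts were between 14935963 and 19812274 in OPC libraries and between 15052892 and 16344601 in neuron libraries.

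The regions upstream of the genes are shown for Enpp6, Neu4 and Bmp4, the members with the largest fitted decrease in neurons, the largest fitted increase in OPCs, and the only OPC groups that did not overlap. Each run is the RefSeq promoter window on GRCm38.p6, 300 bases from 250 before to 50 after the start, written 5′ to 3′ on the strand of the gene, for Enpp6 at chr8:46986637-46986936 (plus strand), for Neu4 at chr1:94020243-94020542 (plus strand) and for Bmp4 at chr14:46390620-46390919 (minus strand). Capitals mark matches, on either strand, to AACAAT, to ACAATG or to ACAAAG (cores like those of SOX factors), to CAGCTG or to CAGATG (E-box forms), and to CAAAGG or to CTTTGA (cores like those of TCF factors).
Enpp6: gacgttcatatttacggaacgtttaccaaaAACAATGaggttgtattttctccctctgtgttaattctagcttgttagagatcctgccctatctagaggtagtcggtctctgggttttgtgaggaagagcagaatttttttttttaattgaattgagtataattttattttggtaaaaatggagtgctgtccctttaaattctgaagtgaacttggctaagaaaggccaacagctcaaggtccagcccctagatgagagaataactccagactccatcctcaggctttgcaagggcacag
Neu4: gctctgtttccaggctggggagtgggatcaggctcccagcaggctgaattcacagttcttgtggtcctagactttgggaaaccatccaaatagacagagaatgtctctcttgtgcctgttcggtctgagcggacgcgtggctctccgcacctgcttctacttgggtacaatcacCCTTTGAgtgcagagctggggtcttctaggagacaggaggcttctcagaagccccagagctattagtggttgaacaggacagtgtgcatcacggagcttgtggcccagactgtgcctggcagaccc
Bmp4: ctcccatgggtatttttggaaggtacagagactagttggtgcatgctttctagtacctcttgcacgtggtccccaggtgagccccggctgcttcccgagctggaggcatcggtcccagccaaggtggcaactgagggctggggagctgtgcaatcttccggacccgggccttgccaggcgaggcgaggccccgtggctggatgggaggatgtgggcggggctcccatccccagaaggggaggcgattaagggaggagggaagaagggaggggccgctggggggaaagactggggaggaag

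In Enpp6 the capitals are overlapping matches to AACAAT and ACAATG, letters that 10.7% and 12.6% of all 32851 promoter windows hold. In Neu4 they are overlapping matches to CAAAGG and CTTTGA, which 20.3% and 16.0% of all windows hold. The Bmp4 window held none of the 7 motifs, and it was the most GC-rich of these, with 64.0% G or C against 40.3% for Enpp6 and 55.3% for Neu4. Of the other members, Sirt2 matched ACAATG, Zfp488 matched CAGCTG (16.3% of all windows) and Nkx2-2 matched CAGATG (17.2%) and CAAAGG. Tcf7l2, which has 2 windows, matched AACAAT, then ACAATG at a pair of places, and CAAAGG in the first, and ACAAAG (18.7%) in the second. These are matches of letters and no binding was measured. Windows were held for 7 of the 10 genes, without Bcas1, Gpr17 and Myrf.

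Per gene length, the members spanned a wide range in ctl OPC libraries. Bcas1 was highest at 317 ± 21.4 FPKM (SD, n = 3), and Sirt2 followed at 118 ± 21.3 and Myrf at 101 ± 19.2 FPKM. Gpr17 had 42.7 ± 14.3 FPKM and Enpp6 24.0 ± 5.87 FPKM. Nkx2-2 at 8.03 ± 1.47, Zfp488 at 7.74 ± 1.19, Bmp4 at 6.39 ± 0.570 and Neu4 at 5.57 ± 1.61 FPKM formed a low group, and Tcf7l2 was lowest at 1.71 ± 0.269 FPKM. The ctl libraries of neighbours in this order overlapped for Sirt2 and Myrf, for Gpr17 and Enpp6, and for each step from Nkx2-2 to Neu4. They did not overlap between Bcas1 and Sirt2, between Myrf and Gpr17, between Enpp6 and Nkx2-2, or between Neu4 and Tcf7l2.

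In OPCs, 0 of the 10 genes passed edgeR's adjusted p of 0.05, beside 1 of 17364 genes tested (0.00576%), which was the transcript 1520401A03Rik. DESeq2 called 0 of the 10 as well, beside 1.68% of the genes it tested. At an unadjusted p of 0.05, edgeR had 1 of the 10, Bmp4, beside 11.5% of all genes tested (6.27% higher and 5.27% lower in dKO), and DESeq2 also had Bmp4 alone, beside 11.8%. The dKO and ctl libraries did not overlap for 1 of the 10, beside 16.4% of all genes. A count of 1 in 10 is close to these background shares. The fitted log2 fold change of dKO against ctl was positive for 7 and negative for 3 of the 10, with a median of 0.18 against 0.01 over all genes. That split was 6 and 4 with a median of 0.08 without dKO replicate 2, 5 and 5 with 0.09 without ctl replicate 1, and 7 and 3 with 0.33 without dKO replicate 3. Below, values per library are normalized counts, the counts scaled to a common library size, which serve to compare libraries and not genes.

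**Figure D1:**
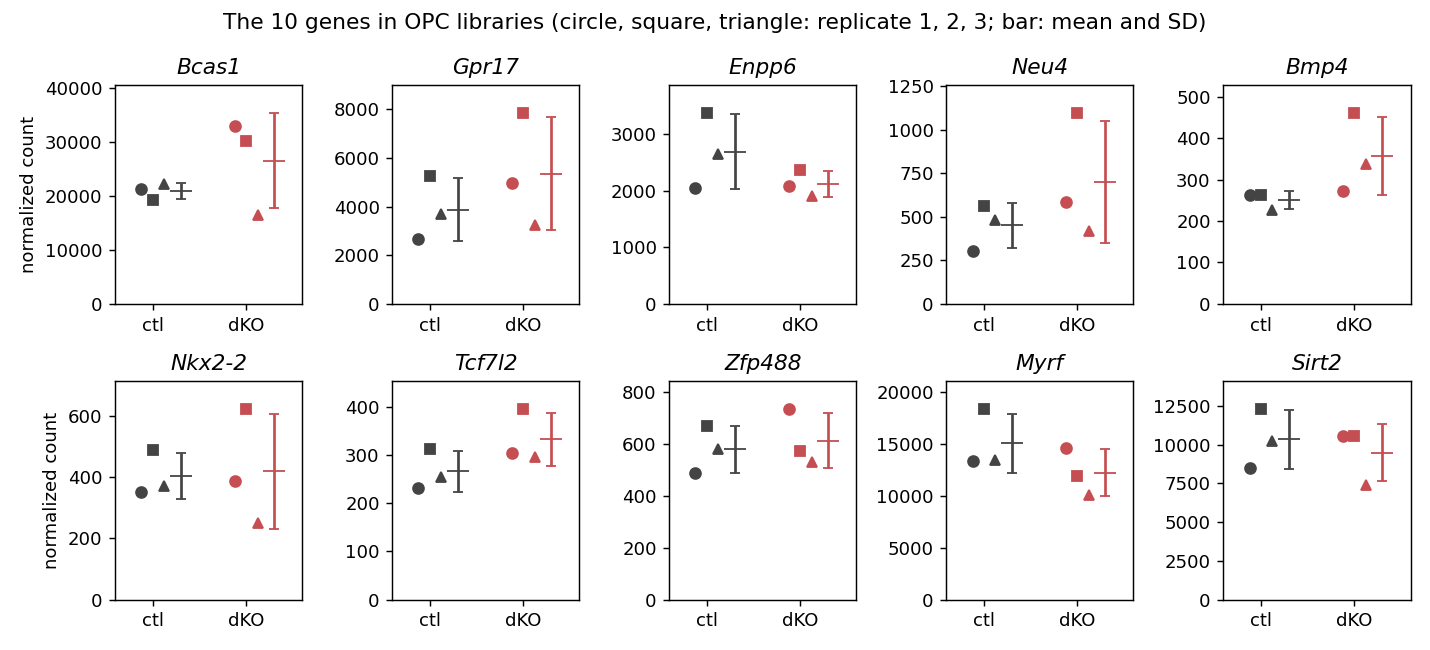
Normalized count of each of the 10 genes in the OPC libraries, ctl in grey and dKO in red, with replicates 1, 2 and 3 as circle, square and triangle and the mean with its SD beside them; each axis starts at 0. Bmp4 has every dKO library above every ctl library, and in the other panels the groups overlap, with the dKO square high for Gpr17, Neu4, Nkx2-2, Tcf7l2 and Bmp4.

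The receptor Gpr17 (ENSMUSG00000052229, chr18:32076050-32082689 in the deposited OPC table) had 2685, 5254 and 3676 normalized counts in ctl replicates 1, 2 and 3, and 4968, 7822 and 3237 in dKO. The highest library was dKO replicate 2 and the lowest ctl replicate 1, and the groups overlapped. Its log2 fold change of dKO against ctl was 0.45 ± 0.33 (SE), with a 95% interval from -0.31 to 1.21 and an edgeR adjusted p of 0.628. With each library left out in turn it lay between 0.06 (dKO replicate 2) and 0.72 (ctl replicate 2), and leaving out dKO replicate 3 gave 0.70 with an unadjusted p of 0.0445.

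Neu4 (ENSMUSG00000034000, chr1:93948173-93956056) had 307, 563 and 483 normalized counts in ctl and 587, 1094 and 419 in dKO. Its pattern was that of Gpr17, with dKO replicate 2 highest and ctl replicate 1 lowest. It had the largest fitted change of the 10 genes in OPCs, a log2 fold change of 0.62 ± 0.35 (SE) with an interval from -0.18 to 1.42 and an edgeR adjusted p of 0.529. That value went to 0.13 without dKO replicate 2, and to 0.87 with an unadjusted p of 0.0234 without dKO replicate 3.

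Bmp4 (ENSMUSG00000021835, chr14:46620977-46628126), whose protein directs precursors away from the oligodendrocyte fate when added to them, had 262, 263 and 227 normalized counts in ctl and 273, 460 and 339 in dKO. All 3 dKO libraries lay above all 3 ctl libraries, though dKO replicate 1 was close to ctl replicates 1 and 2. The log2 fold change was 0.49 ± 0.21 (SE), with an interval from 0.02 to 0.96, an unadjusted p of 0.0437 and an edgeR adjusted p of 0.427. Leaving out dKO replicate 2 gave 0.25, and an unadjusted p of 0.190, while leaving out dKO replicate 1 gave 0.66.

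Bcas1 (ENSMUSG00000013523, chr2:170188911-170269765), a basic protein of early myelinating oligodendrocytes, had 21272, 19292 and 22177 normalized counts in ctl and 32939, 30149 and 16495 in dKO. The ctl libraries lay close together, while dKO replicates 1 and 2 lay above all of them and dKO replicate 3 below all of them. The SD was 1476 in ctl and 8800 in dKO (n = 3 each). The fitted change was a log2 fold change of 0.32 ± 0.26 (SE), with an interval from -0.26 to 0.90 and an edgeR adjusted p of 0.654. Without dKO replicate 3 it became 0.56, with an unadjusted p of 0.00744, while leaving out dKO replicate 2 gave 0.21 and leaving out dKO replicate 1 gave 0.14.

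For Enpp6 (ENSMUSG00000038173, chr8:47439922-47549797), a choline-specific glycerophosphodiesterase, the ctl libraries had 2047, 3366 and 2653 normalized counts and the dKO libraries 2084, 2371 and 1915. The dKO libraries all lay below ctl replicates 2 and 3, while ctl replicate 1 lay among them. Its log2 fold change of -0.36 ± 0.18 (SE) had an interval from -0.77 to 0.05 and an edgeR adjusted p of 0.480. The value was -0.17 without ctl replicate 2. Leaving out ctl replicate 1 gave -0.52 and leaving out dKO replicate 2 gave -0.46, with unadjusted p-values of 0.0138 and 0.0448.

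Among the transcriptional regulators, Nkx2-2 (ENSMUSG00000027434, chr2:147019466-147036163), a homeodomain factor, had 352, 487 and 370 normalized counts in ctl and 386, 621 and 249 in dKO. The dKO group held both the highest and the lowest library. The fit gave a log2 fold change of 0.04 ± 0.30 (SE), with an interval from -0.65 to 0.73, and it was -0.37 without dKO replicate 2.

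Tcf7l2 (ENSMUSG00000024985, chr19:55730252-55922086), the TCF factor through which beta-catenin acts on its target genes, had 231, 312 and 254 normalized counts in ctl and 305, 395 and 296 in dKO. Only ctl replicate 2 reached into the dKO range. The log2 fold change was 0.30 ± 0.18 (SE), with an interval from -0.10 to 0.71 and an edgeR adjusted p of 0.543, and without dKO replicate 2 it was 0.15.

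Zfp488 (ENSMUSG00000044519, chr14:33689027-33700721), a zinc finger co-repressor that works with Olig2, had 491, 672 and 581 normalized counts in ctl and 735, 574 and 532 in dKO. The groups covered nearly the same range. Its log2 fold change of 0.06 ± 0.16 (SE) had an interval from -0.31 to 0.42, and without dKO replicate 2 it was 0.10.

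Myrf (ENSMUSG00000036098, chr19:10185636-10218112) had 13348, 18362 and 13493 normalized counts in ctl and 14647, 11958 and 10102 in dKO. The lowest libraries were dKO replicates 3 and 2, and dKO replicate 1 lay within the ctl range. The fit gave a log2 fold change of -0.32 ± 0.19 (SE), with an interval from -0.76 to 0.12 and an edgeR adjusted p of 0.549. Without ctl replicate 2 it was -0.16, and leaving out dKO replicate 2 gave -0.32.

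Sirt2 (ENSMUSG00000015149, chr7:28466160-28488086) had 8509, 12284 and 10236 normalized counts in ctl and 10534, 10554 and 7376 in dKO. Only dKO replicate 3 lay below the ctl range. Its log2 fold change of -0.15 ± 0.19 (SE) had an interval from -0.59 to 0.30, and leaving out dKO replicate 3 gave -0.003 while leaving out dKO replicate 2 gave -0.24.

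The members did not vary together across the OPC libraries. Set against the summed CPM of the 14 OPC markers, Gpr17 was 28.5%, 29.5% and 26.7% of that sum in ctl replicates 1, 2 and 3, and 31.4%, 25.0% and 23.3% in dKO. The SD of its log2 ratio to the OPC markers over the 6 libraries was 0.16, while that of Gpr17 itself was 0.56. Neu4 was even steadier, at 3.26%, 3.16% and 3.51% of the OPC marker sum in ctl and 3.71%, 3.50% and 3.02% in dKO, with an SD of 0.11 for the ratio and 0.61 for Neu4. Over the same libraries the OPC marker sum itself went from 537 CPM in ctl replicate 1 to 1786 CPM in dKO replicate 2. The other ctl libraries had 1016 and 786 CPM and the other dKO libraries 903 and 791 CPM. The astrocyte marker sum was also lowest in ctl replicate 1, at 1726 CPM, and highest in dKO replicate 2, at 7617 CPM. The part of astrocyte RNA in the OPC marker sum was not tested. Without dKO replicate 2 the ratio's spread stayed at 0.16 for Gpr17 and 0.12 for Neu4, while that of the genes themselves fell to 0.41 and 0.38. In bulk RNA, more cells of a type and more RNA per cell cannot be told apart.

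Myrf followed the other end of the lineage. It was 1.54%, 1.55% and 1.37% of the summed mature marker CPM in ctl and 1.42%, 1.53% and 1.51% in dKO, and the SD of the log2 ratio was 0.07, against 0.29 for Myrf itself. The mature marker sum was 49485, 67660 and 56003 CPM in ctl and 58699, 44734 and 38214 CPM in dKO. Sirt2 was 0.981% to 1.04% of that sum in ctl, 1.02% and 1.10% in dKO replicates 1 and 3, and 1.35% in dKO replicate 2. Nkx2-2 was also close to constant in 5 libraries, between 0.0372% and 0.0411% of the mature marker sum, and stood at 0.0792% in dKO replicate 2. Its SD of the log2 ratio was 0.42 with that library and 0.07 without it. Enpp6 followed the mature sum less closely, with an SD of 0.22 for the ratio and 0.30 for Enpp6. Zfp488 varied as much against the mature sum (0.21) as by itself (0.21), and more against the OPC markers (0.53). That comparison rested on dKO replicate 2, without which the SD against the OPC markers was 0.20, below its own 0.24. For Bmp4 the SD was 0.39 against the OPC markers and 0.60 against the mature markers, above its own 0.36, and without dKO replicate 2 it was 0.39 and 0.48, above 0.21. For Tcf7l2 it was 0.32 and 0.42, above its own 0.27, and without dKO replicate 2 it was 0.19 and 0.33 beside its own 0.19. These ratios share libraries and depth and are descriptions over 6 points.

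Bcas1 followed neither sum, with SDs of the log2 ratio of 0.51 to the OPC markers and 0.43 to the mature markers against 0.38 of its own, and of 0.47 and 0.35 against 0.37 without dKO replicate 2. Of all 17364 genes tested, the one with the pattern most like it was Mbp, at a root mean square difference of 0.03 in centred log2 CPM over the 6 libraries, followed by Plekhb1 at 0.07. Mbp, which is not in the mature marker list, had 415570, 393225 and 445453 normalized counts in ctl and 658519, 572411 and 320511 in dKO. As with Bcas1, dKO replicates 1 and 2 were above and dKO replicate 3 below every ctl library.

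By the same measure the nearest genes were Mycl (0.07) and Bmerb1 (0.08) for Gpr17, Dpp6 (0.06) and Tmem255a (0.08) for Neu4, and Sox4 and Rgs6 (0.07 each) for Bmp4. They were A230057D06Rik (0.05) and Col11a2 (0.06) for Enpp6, Frmd4a (0.05) and Lrp4 (0.06) for Tcf7l2, and Dnm1 (0.09) and Elfn2 (0.10) for Nkx2-2. For Myrf they were Arhgef10 (0.02) and Tubb4a (0.03), for Sirt2 Gpr85 (0.03) and Rragb (0.04), and for Zfp488 Rab7-ps1 (0.04). Within the 10 genes, Gpr17 and Neu4 were the nearest to each other (0.13), as were Myrf and Sirt2 (0.15), and Tcf7l2 and Bmp4 (0.20). Bcas1 had its nearest member, Zfp488, only at 0.30.

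**Figure D2:**
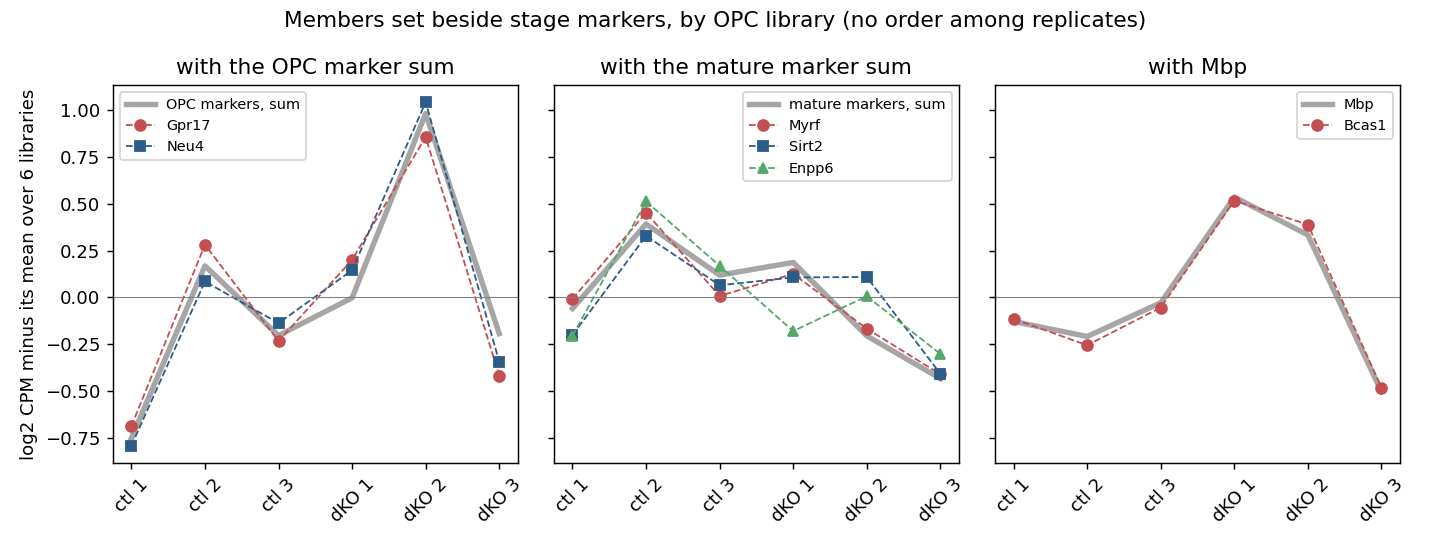
Log2 CPM of members minus the mean over the 6 OPC libraries (vertical axis), by library (horizontal axis), drawn over the summed OPC markers, the summed mature markers or Mbp as a thick grey line; lines join libraries only to guide the eye. Gpr17 and Neu4 lie along the OPC marker sum, Myrf along the mature sum with Sirt2 and Enpp6 near it, and Bcas1 along Mbp.

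The stage lists on either side of the members also had no gene past an adjusted p of 0.05 in OPCs by edgeR. Of 20 mature oligodendrocyte markers, 19 had a negative and 1 a positive log2 fold change, with a median of -0.43. Of the 20, 6 had an unadjusted p under 0.05, all lower in dKO, beside 5.27% of all genes. Aspa, which cleaves N-acetylaspartate for myelin lipid synthesis, had the smallest p, at -0.72 ± 0.14 (SE) with an edgeR adjusted p of 0.246, and its DESeq2 adjusted p was 0.00321. Mog and Fa2h, of the myelin surface and of myelin lipids, had -0.60 ± 0.20 and -0.52 ± 0.18. The number with an unadjusted p under 0.05 was 2 without dKO replicate 2 (median -0.38), 1 without ctl replicate 2 (median -0.27) and 14 without dKO replicate 1 (median -0.58). The shares of all genes in those fits, in either direction, were 13.3%, 6.34% and 11.4%.

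Of 14 OPC markers, 13 were on the higher side with a median of 0.57. Only 1, Ptprz1, had an unadjusted p under 0.05, beside the 6.27% of all genes that were higher. It had 0.92 ± 0.39 (SE) with an edgeR adjusted p of 0.427. Xylt1 and Vcan had 0.57 ± 0.26 and 0.66 ± 0.32. Without dKO replicate 2 the median of the 14 was 0.10 and none had an unadjusted p under 0.05, beside 13.3% of all genes. At that threshold 8 were higher without dKO replicate 3 (median 0.79), beside 11.2% of all genes. Without ctl replicate 2 it was 4 (median 0.76), beside 6.34% of all genes. Of 15 other genes of newly formed oligodendrocytes, 7 were on the higher and 8 on the lower side, with a median of -0.01. The lipid elongase Elovl6 had the smallest p, at -0.45 ± 0.14 (SE) with an edgeR adjusted p of 0.313, while Frmd4a had 0.27 ± 0.17 and Plekha1 -0.25 ± 0.16. Without dKO replicate 2 the median of the 15 was -0.09.

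The regulators that work beside Myrf, Nkx2-2 and Zfp488 gave a similar picture. Of 16 lineage transcription and chromatin factors, 5 had a positive and 11 a negative log2 fold change with a median of -0.13. Only Prox1 had an unadjusted p under 0.05, beside 11.5% of all genes in either direction. Prox1 had 2191, 3045 and 2195 normalized counts in ctl and 1864, 1827 and 1564 in dKO, a log2 fold change of -0.52 ± 0.15 (SE) with an edgeR adjusted p of 0.310. Sox17 had 0.48 ± 0.22 and Klf9 0.31 ± 0.16. The counts of Sox17 were highest in dKO replicates 3 and 1 (1498 and 1210), as was the endothelial marker sum (3328 and 2619 CPM). The part of endothelial RNA in Sox17 was not tested. Without dKO replicate 2, 15 of the lineage factors were tested. Of these 3 were higher and 1 lower at an unadjusted p under 0.05, beside 13.3% of all genes in that fit. Around Tcf7l2, 15 of 16 Wnt pathway genes were tested, with a median of 0.02. Nkd1, a feedback inhibitor of Wnt signalling, had an unadjusted p under 0.05 at -0.29 ± 0.11 (SE), and Apc and Ctnnb1 had -0.20 ± 0.13 and 0.21 ± 0.14. Without dKO replicate 2, 2 of the Wnt genes were higher and 1 lower at an unadjusted p under 0.05, beside the same 13.3% of all genes.

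The pathway of Bmp4 held more genes past the unadjusted threshold. Of 21 other BMP pathway genes, 6 had an unadjusted p under 0.05 in OPCs, all 6 higher in dKO, beside the 6.27% of all genes, and 18 had a positive log2 fold change. The groups did not overlap for 7 of the 21, all higher in dKO, beside 16.4% of all genes in either direction. The pathway inhibitor Smad6 had 274, 180 and 266 normalized counts in ctl and 548, 375 and 629 in dKO, a log2 fold change of 1.08 ± 0.23 (SE) with an edgeR adjusted p of 0.246. The receptor Bmpr1b, at 128, 173 and 139 against 196, 462 and 316 normalized counts, had 1.13 ± 0.30. The secreted antagonist Chrdl1, at 45.3, 76.2 and 81.5 against 112, 336 and 143, had 1.53 ± 0.44. Their DESeq2 adjusted p-values were 0.00528, 0.0310 and 0.0339. Without dKO replicate 2, 8 of the 21 were higher and 1 lower at an unadjusted p under 0.05, beside 13.3% of all genes in that fit.

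Other cell types moved with the groups in the same libraries. All 12 microglia markers had an unadjusted p under 0.05, higher in dKO, beside 6.27% of all genes. Their summed level was 257 to 311 CPM in ctl and 330 to 1046 CPM in dKO. C1qa, C1qb and C1qc had log2 fold changes of 1.57 ± 0.31, 1.31 ± 0.29 and 1.30 ± 0.31 (SE). Of 10 astrocyte markers, 9 had an unadjusted p under 0.05, higher in dKO, beside the same share of all genes. The list went from 1726 to 2859 CPM in ctl and from 2804 to 7617 CPM in dKO, with the highest value in dKO replicate 2. Gjb6, Gfap and Fgfr3 had 1.64 ± 0.33, 0.60 ± 0.14 and 1.24 ± 0.31. The 10 endothelial markers had no unadjusted p under 0.05 and summed to 1433 to 2093 CPM in ctl and 1184 to 3328 CPM in dKO, with Ly6c1, Pecam1 and Abcb1a at 0.64 ± 0.33, 0.57 ± 0.34 and 0.51 ± 0.35. The 10 mural cell markers summed to 908 to 1296 CPM in ctl and 772 to 1606 CPM in dKO, with Abcc9, Vtn and Rgs5 at 0.75 ± 0.40, 0.40 ± 0.24 and 0.49 ± 0.32. The 12 neuron markers summed to 110 to 138 CPM in ctl and 124 to 168 CPM in dKO, with Syt1, Snap25 and Gad1 at 0.86 ± 0.25, 0.54 ± 0.28 and 0.44 ± 0.26. Leaving out dKO replicate 2 lowered the astrocyte median from 1.09 to 0.56, with 6 of 10 at an unadjusted p under 0.05, and raised the endothelial median from 0.35 to 0.69, with 9 of 10 higher. It left 12 of 12 microglia markers higher, with a median of 1.61, and gave 4 of 10 mural and 2 of 12 neuron markers higher. In that fit 13.3% of all genes had an unadjusted p under 0.05, in either direction. Endothelial cells also express Smad6, and astrocytes express Bmpr1b and Chrdl1. The part of these lists in the values of Bmp4 and its pathway was not tested.

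**Figure D3:**
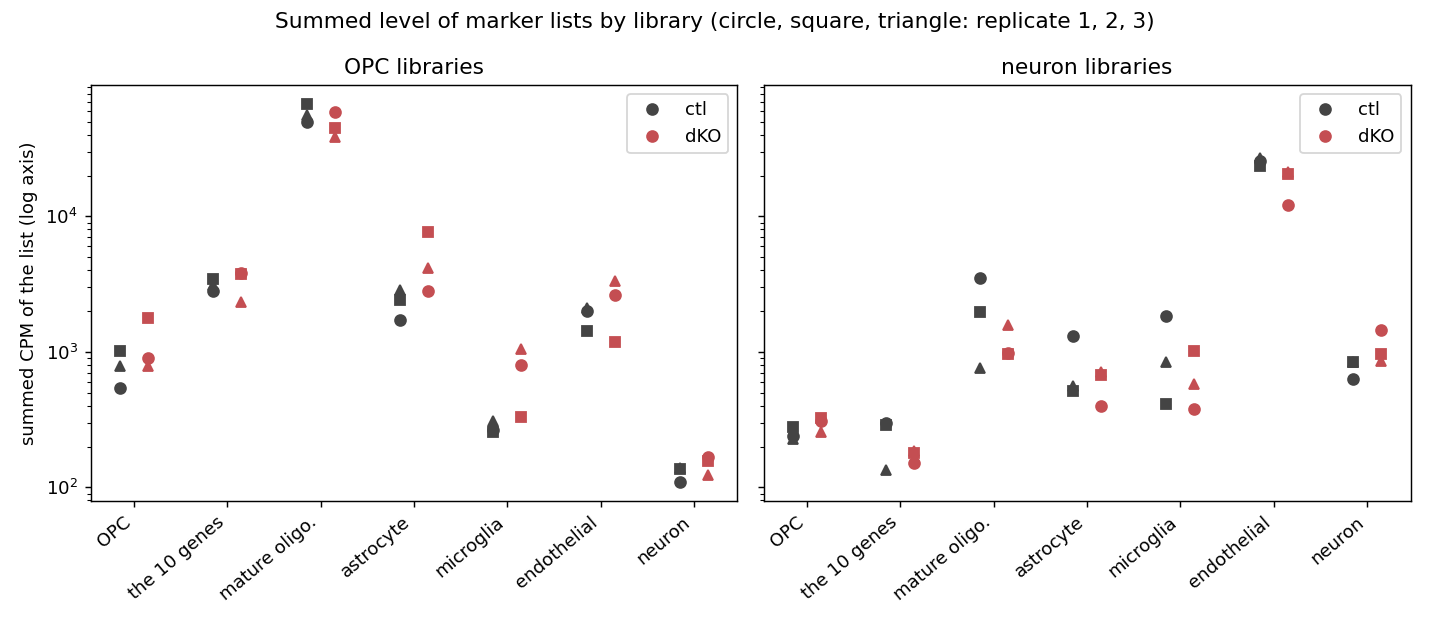
Summed CPM of each marker list (vertical log axis) in each OPC library (left) and neuron library (right), with ctl in grey and dKO in red and replicates 1, 2 and 3 as circle, square and triangle. Mature oligodendrocyte markers lead in the OPC libraries and endothelial markers in the neuron libraries, and the 10 genes sum to between 2337 and 3849 CPM in OPC and between 134 and 298 CPM in neuron libraries.

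The neuron table gave estimated counts by a different method, so its levels stand beside the OPC levels without a test. Per gene length, these libraries held between 10507 and 27595 TPM of summed endothelial markers and between 493 and 896 TPM of neuron markers. Mature oligodendrocyte markers summed to between 447 and 2236 TPM. The levels of the members are those of these mixed libraries. Sirt2 was the highest member in the ctl neuron libraries at 137 ± 39.9 TPM (SD, n = 3). Bcas1 had 13.2 ± 9.44, Tcf7l2 8.70 ± 3.35, Gpr17 8.62 ± 6.26, Enpp6 7.02 ± 4.24 and Bmp4 6.34 ± 4.63 TPM. Zfp488 at 1.98 ± 0.509, Neu4 at 1.97 ± 1.03, Nkx2-2 at 0.573 ± 0.535 and Myrf at 0.547 ± 0.481 TPM were lowest. Only Sirt2 stood apart from its neighbour in this order, and the ctl libraries of all other neighbours overlapped. Myrf, among the highest in OPCs, was last here, and Tcf7l2, last in OPCs, stood below only Sirt2 and Bcas1.

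In CPM, again set side by side without a test because the tables were counted differently, Myrf was 860 ± 163 in ctl OPC and 1.72 ± 1.53 in ctl neuron libraries. Bcas1 was 1193 ± 84.2 and 22.7 ± 15.7 CPM. Tcf7l2 was the exception, at 15.2 ± 2.39 CPM in OPC and 20.5 ± 6.85 CPM in neuron libraries (SD, n = 3 each).

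In neurons, 9 of the 10 genes were tested and Nkx2-2 fell under the count minimum. By edgeR, 0 of the 9 passed an adjusted p of 0.05, beside 0.00% of 14352 genes tested, and DESeq2 called 0 of the 9, beside 0.621% of the genes it tested. At an unadjusted p of 0.05, 1 of the 9, Enpp6, was lower in dKO, by either tool, beside 9.00% of all genes by edgeR (4.96% higher and 4.04% lower) and 10.7% by DESeq2. The groups did not overlap for 1 of the 9, Zfp488, beside 15.3% of all genes. The log2 fold change was negative for 8 of the 9, with a median of -0.80 against 0.01 over all genes.

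**Figure D4:**
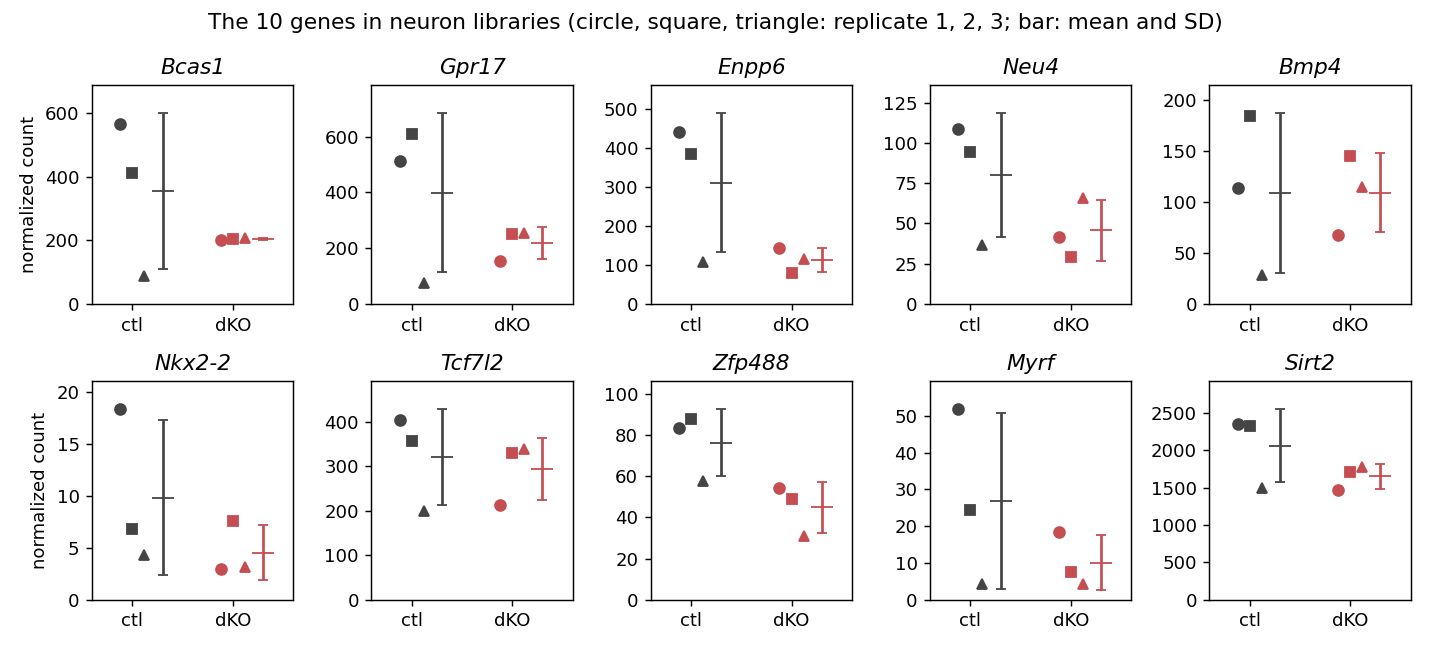
Normalized count of each of the 10 genes in the neuron libraries, with the same symbols as for the OPC libraries and each axis from 0. The ctl triangle (replicate 3) is the lowest ctl library in every panel, and for Bcas1, Gpr17, Bmp4 and Tcf7l2 it lies below every dKO library.

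Enpp6 had 441, 385 and 108 normalized counts in ctl neuron replicates 1, 2 and 3 and 143, 79.4 and 117 in dKO. The first 2 ctl libraries lay above every dKO library and ctl replicate 3 among them. The log2 fold change was -1.46 ± 0.48 (SE), with an interval from -2.57 to -0.35, an unadjusted p of 0.0157 and an edgeR adjusted p of 0.521. Without ctl replicate 3 it was -1.87, and the values with each library left out lay between -1.87 and -1.12. Its unadjusted edgeR p was 0.0636 without ctl replicate 1, 0.0505 without ctl replicate 2 and 0.0542 without dKO replicate 2.

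Bcas1 had 565, 414 and 86.7 normalized counts in ctl and 200, 203 and 206 in dKO. Gpr17 had 512, 609 and 75.0 in ctl and 153, 250 and 253 in dKO. For both genes the dKO libraries lay between ctl replicate 3 and the other ctl libraries. Their log2 fold changes were -0.80 ± 0.53 and -0.86 ± 0.61 (SE), with intervals from -2.02 to 0.42 and from -2.25 to 0.53. Without ctl replicate 3 they were -1.26 and -1.35, with unadjusted p-values of 0.000477 and 0.00101. Bcas1 was -0.30 without ctl replicate 1 and Gpr17 -0.42 without ctl replicate 2, with unadjusted p-values of 0.597 and 0.539.

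Neu4 had 109, 94.7 and 36.4 normalized counts in ctl and 41.7, 29.3 and 66.1 in dKO, a log2 fold change of -0.81 ± 0.51 (SE) that lay between -1.16 and -0.52 with each library left out and was -0.32 ± 1.30 on its most abundant transcript alone. Zfp488 had 83.4, 87.8 and 57.8 in ctl and 54.3, 49.1 and 31.0 in dKO, so that every dKO library was below every ctl library, by a small margin between ctl replicate 3 and dKO replicate 1. Its log2 fold change was -0.76 ± 0.39 (SE), with an interval from -1.65 to 0.13 and an edgeR adjusted p of 0.591.

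Sirt2 had 2355, 2332 and 1498 normalized counts in ctl and 1465, 1708 and 1780 in dKO, and Tcf7l2 had 405, 357 and 200 in ctl and 213, 329 and 338 in dKO. For Sirt2, ctl replicate 3 lay just above the lowest dKO library, and for Tcf7l2 just below it. The log2 fold changes were -0.32 ± 0.19 and -0.13 ± 0.29 (SE), with intervals from -0.76 to 0.12 and from -0.80 to 0.54. Bmp4 had 114, 183 and 27.8 normalized counts in ctl and 67.9, 145 and 115 in dKO, with a log2 fold change of 0.01 ± 0.59 and an interval from -1.35 to 1.37. An increase like the one fitted in OPCs and a decrease of the same size both lie within that interval.

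The 2 least abundant members were near the limit of counting. Myrf had 51.9, 24.4 and 4.28 normalized counts in ctl and 18.4, 7.56 and 4.13 in dKO, a log2 fold change of -1.40 ± 0.91 (SE) with an interval from -3.48 to 0.69. With each library left out it lay between -2.17 (dKO replicate 1) and -0.51 (ctl replicate 1). Nkx2-2 had 18.3, 6.83 and 4.28 in ctl and 2.91, 7.56 and 3.10 in dKO and was not tested.

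Mature oligodendrocyte markers varied with some of the members in the same neuron libraries. The SD of the log2 ratio to their sum was 0.39 for Bcas1, 0.60 for Gpr17, 0.54 for Enpp6 and 0.30 for Neu4. These genes' own SDs were 0.94, 1.12, 1.03 and 0.77. For Myrf, Nkx2-2 and Bmp4 the ratio also varied less than the gene. It varied more for Sirt2 (0.555 against 0.301), Tcf7l2 (0.52 against 0.42) and Zfp488 (0.75 against 0.55). The summed level of the mature markers was 3479, 1953 and 762 CPM in ctl and 978, 964 and 1577 CPM in dKO. Their lowest library was ctl replicate 3, as it was for Bcas1, Gpr17, Bmp4 and Tcf7l2 among the members. Of the 19 tested, 18 had a negative log2 fold change, with a median of -0.91. An unadjusted p under 0.05 was found for 2, both lower in dKO, beside 4.04% of all genes. Mal, Hapln2 and Gjb1 had -0.63 ± 0.23, -1.97 ± 0.75 and -1.70 ± 0.78 (SE). Without ctl replicate 3, 6 of the 9 members and 15 of the 19 mature markers were lower at an unadjusted p under 0.05, 1 mature marker was higher, and 0 passed an edgeR adjusted p of 0.05, beside 6.94% of all genes at the unadjusted threshold in either direction. Without ctl replicate 1, in contrast, 0 of the 9 members and 0 of the 19 mature markers had an unadjusted p under 0.05, with medians of -0.51 and -0.07, beside 5.45% of all genes. The OPC marker sum was 240, 281 and 226 CPM in ctl and 310, 325 and 258 CPM in dKO, again lowest in ctl replicate 3 but over a narrower range. Its median log2 fold change was 0.08 over 13 tested genes, and -0.41 over 14 without ctl replicate 3. Cspg4, Cacng4 and Ptprz1 had -1.36 ± 0.48, 0.85 ± 0.36 and 0.30 ± 0.14. Cells bound by O4 beads had been held back from these libraries, and the part of oligodendrocyte RNA in the neuron values of the members was not tested.

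The remaining lists in neurons had no gene past the adjusted threshold by edgeR. Among 13 tested genes of newly formed oligodendrocytes 2 were higher and 3 lower at an unadjusted p under 0.05 (in all genes 4.96% and 4.04%), led by Rras2 at -0.41 ± 0.13, Slc12a2 at 0.63 ± 0.20 and Itpr2 at -0.67 ± 0.24 (SE). Among 16 lineage factors 1 was higher and 1, Klf6 at -0.44 ± 0.15, was lower, while Prox1 had 0.51 ± 0.23 with an unadjusted p of 0.0579. Against the same shares, in the pathway of Bmp4 3 of 19 genes were higher and 2 lower, led by the receptor Bmpr2 at -0.57 ± 0.19, the shared SMAD Smad4 at 0.80 ± 0.27 and the ligand Bmp6 at 0.87 ± 0.32. Of 15 Wnt genes, Notum, an enzyme that inactivates Wnt ligands, was lower at -0.49 ± 0.18, and Tcf7l1 and Nkd1 had -0.48 ± 0.28 and -0.38 ± 0.23.

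Markers of other cells in the neuron libraries also differed in level between libraries. All 10 endothelial markers had a negative log2 fold change and 8 of them had groups that did not overlap (15.3% of all genes), with sums of 23375 to 27160 CPM in ctl and 12057 to 21097 CPM in dKO and Ly6c1, Cdh5 and Cldn5 at -0.50 ± 0.18, -0.39 ± 0.16 and -0.51 ± 0.21 (SE). Astrocyte markers summed to 510 to 1303 CPM in ctl and 395 to 712 CPM in dKO, with Gfap, Gja1 and Aqp4 at -0.96 ± 0.37, -0.66 ± 0.26 and -1.11 ± 0.58. The astrocyte median turned from -0.39 to 0.43 without ctl replicate 1, the library with the highest sum. Microglia markers summed to 411 to 1833 CPM and 381 to 1021 CPM, with Aif1, C1qb and Itgam at -0.90 ± 0.52, -0.81 ± 0.52 and -0.83 ± 0.56, and their median went from -0.71 to 0.10 without the same library. Mural cell markers summed to 644 to 1543 CPM and 911 to 1426 CPM, with Tagln, Abcc9 and Ndufa4l2 at -0.47 ± 0.42, 0.43 ± 0.43 and 0.27 ± 0.45. Neuron markers summed to 632 to 848 CPM in ctl and 853 to 1452 CPM in dKO. Of 12, 2 were higher at an unadjusted p under 0.05, beside 4.96% of all genes, with Syn1, Stmn2 and Gad1 at 0.66 ± 0.23, 0.54 ± 0.21 and 0.51 ± 0.23. Without dKO replicate 1, which had the highest sum, 0 were higher and 1 lower, beside 8.29% of all genes, and the median went from 0.53 to -0.06.

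**Figure D5:**
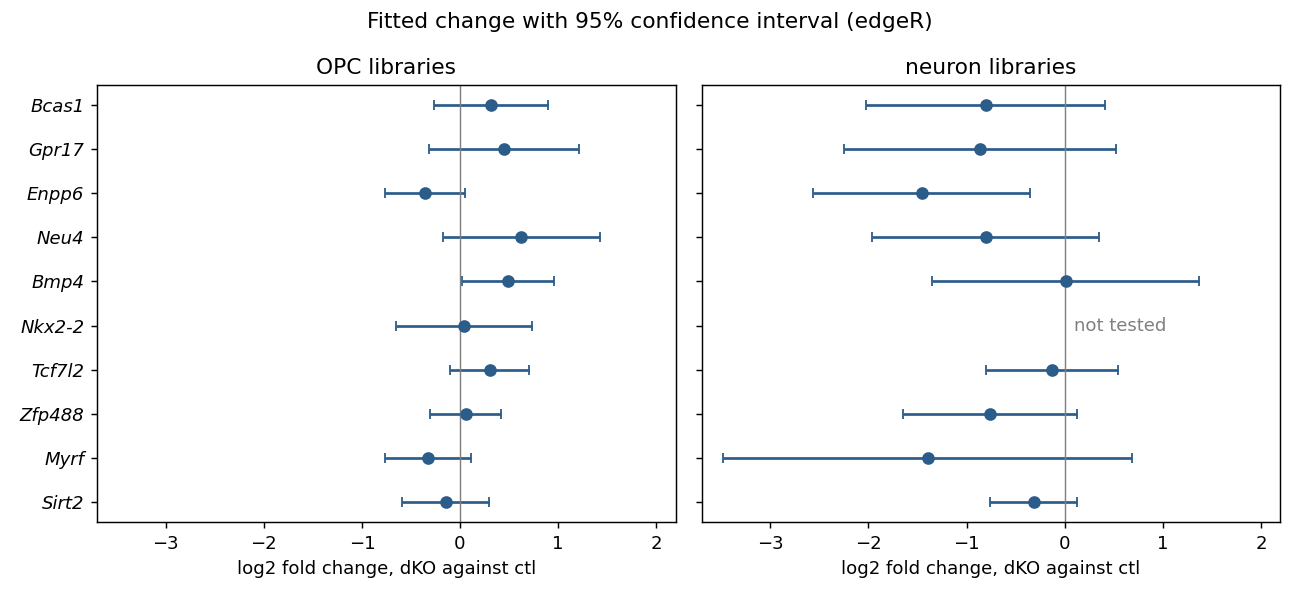
Fitted log2 fold change of dKO against ctl with its 95% confidence interval for the 10 genes in OPC libraries (left) and the 9 tested in neuron libraries (right, Nkx2-2 not tested); a vertical line marks no change. The interval of Bmp4 in OPCs and that of Enpp6 in neurons exclude 0, above and below it respectively, the others include it, and the intervals are wider in neurons for each tested gene other than Sirt2.

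The intervals set what could have been seen. In OPCs they reached from -0.77 for Enpp6 to 1.42 for Neu4, and the narrowest, that of Zfp488, ran from -0.31 to 0.42. In neurons the interval of Myrf spanned from -3.48 to 0.69, so that changes of the size seen in OPCs were not detectable for most members at this number of libraries.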

How the data were processed

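The authors deposited raw counts per Ensembl gene for OPCs, with FPKM and gene length. Their methods name HISAT2, featureCounts and GRCm38, the submitters' processing notes name mm39, and the OPC coordinates, printed as deposited, do not match the GRCm38 annotation, so their build was left unsettled. The neuron table, as deposited by the authors, holds estimated counts for each RefSeq transcript, with TPM. How these were estimated is not given in the sources used here. They were summed per gene, rounded, and matched to symbols through RefSeq (17794 of 17918 genes). Genes without a symbol held 0.0441% of counts. The authors' own fold changes and p-values were not used.

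Each cell type was fitted separately with edgeR 4.0.16 (R 4.3.3; quasi-likelihood test, TMM, genotype only) over genes whose mean reached 10 normalized counts, with Benjamini-Hochberg adjustment over all genes tested at 0.05. SE is the log2 fold change over the square root of F. Replicate variation was 20.5% in OPCs and 27.7% in neurons. DESeq2 1.42.0 and other settings were alternatives. The scripts were tested on simulated data. Libraries were grouped by their titles. Whether the replicates came from separate preparations is not stated beyond the pooling of mice, so p-values measure the spread between these libraries. In groups of 3 the smallest two-sided exact permutation p is 0.1, so none was used. Replicates differed by more than sampling noise, so none was counted as a copy.

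The 10 members, the 11 other lists, the motifs and the printed promoters were chosen with earlier results of these data known. Genes named beside the members are the 3 of each list with the smallest p per cell type, the targeted genes, and the 2 genes most like each member, of which some are not reported here. 1520401A03Rik was named after its values were seen, as were the Y-linked genes, Xist and the values of Mbp. Patterns used log2 of CPM plus 0.01.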

Additional observations from a re-analysis of the deposited data

Results flagged for a closer look

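For 2 of the genes named beside the members, every dKO library lay on one side of every ctl library in OPCs and on the other side in neurons. The groups did not overlap for 16.4% of all genes in OPCs and 15.3% in neurons, in either direction. Both genes had been named for their small p in these same data. The share of all genes that lay apart in opposite directions is not given here. The transcription factor Prox1 was lower in all 3 dKO libraries of OPCs (log2 fold change -0.52) and higher in all 3 of neurons (0.51). The astrocyte filament gene Gfap was higher in all 3 dKO libraries of OPCs (0.60) and lower in all 3 of neurons (-0.96). The difference between the cell types was not tested, because their tables were counted in different ways. None of the 10 members showed this.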

How the results depend on the processing

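None of the 10 genes reached an adjusted p of 0.05 in either cell type under any alternative run. In OPCs the number of genes called was 1 in the reported edgeR fit, 291 with DESeq2, 87 with no filter on low counts, and 1 to 199 with each library left out, the highest without dKO replicate 2. Genes at an unadjusted p under 0.05 were 1106 to 2292 in OPCs with each library left out. In neurons 0 genes were called in the reported fit (1292 at an unadjusted p under 0.05), 89 with DESeq2, and 0 with each library left out, when 780 to 1581 had an unadjusted p under 0.05. Members at an unadjusted p under 0.05 in OPCs were 1 as reported (11.5% of all genes) and 2 with no filter (9.15% of all genes). With each library left out they were 0 to 3 in OPCs, the highest without dKO replicate 3 (11.2% of all genes). In neurons they were 0 to 6, the highest without ctl replicate 3 (6.94% of all genes). Bmp4 in OPCs lost its unadjusted p under 0.05 when any library but dKO replicate 1 was left out. In neurons Enpp6 lost it when ctl replicate 1, ctl replicate 2 or dKO replicate 2 was left out.

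Signs turned only for values close to 0 or with wide intervals. With 1 library left out, Nkx2-2 in OPCs went from -0.37 to 0.29, below 0 for ctl replicate 1 (-0.04), ctl replicate 3 (-0.03) and dKO replicate 2. Zfp488 in OPCs turned for ctl replicate 1 (-0.04) and dKO replicate 1, with a range from -0.085 to 0.17. Tcf7l2 in neurons was between -0.37 and 0.075, turning for ctl replicate 1 and dKO replicate 1 (0.05), and was 0.68 with its most abundant transcript only, which held 8.56% of its counts. Bmp4 in neurons was between -0.44 and 0.62, turning for ctl replicate 3, dKO replicate 2 (-0.25) and dKO replicate 3 (-0.02). The cause was not tested. Myrf could not be tested on its most abundant transcript, since too few counts were left. Mean ctl levels in OPCs with TMM CPM per gene length in place of FPKM moved by less than the SD for all 10 genes.

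The groups share replicate numbers, which the labels do not say mark a litter or day. Same-numbered libraries correlated at -0.11, 0.15 and 0.11 in OPCs and at 0.17, -0.08 and -0.08 in neurons, and the labels do not pair them. The same-numbered neuron replicates 1 also shared Y-linked counts, which the other neuron libraries held at 3.69 CPM or less. With a replicate block, 27 genes were called in OPCs and 0 in neurons. In that fit 3 members in OPCs had an unadjusted p under 0.05 (Enpp6, Bmp4 and Neu4), beside 11.7% of all genes, and Nkx2-2 in OPCs was -0.044.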
